A study of Arabidopsis thaliana with 12 samples.

Results

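The comparison described here set cbfs-1 seedlings against wild type (Col) seedlings of Arabidopsis thaliana after 24 h at 4 °C. Expression was measured by RNA sequencing of total RNA from whole seedlings, 14 d old, raised at 22 °C in long days on 1/2 MS medium. Each genotype had 2 libraries at 24 h, so 4 of the 12 libraries of the series enter the comparison itself. The other 8 are cbfs-1 and wild type at 0 h (before cold) and 3 h, with 2 libraries each. cbfs-1 is a mutant line named after the CBF genes, and the sources used here give neither the nature of its lesion nor the number of lines behind it. Members had to reach 10 in 2 or more of the 4 libraries at 24 h, which held for 19789 of the 24616 genes in the deposited table. By the same rule 20126 genes entered at 0 h and 20174 at 3 h. The labelled tissue is the whole seedling, so each value is an average over all organs, and fewer cells of a type cannot be told apart from less RNA per cell.

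CBF1, CBF2 and CBF3 (C-repeat binding factors, also called DREB1 proteins) are transcription factors of the AP2/ERF family that are switched on within hours of a fall in temperature. They bind a short promoter element, the C-repeat or dehydration-responsive element with the core CCGAC, and raise the transcription of cold-regulated (COR) genes. Many COR genes encode hydrophilic proteins that stabilise membranes and other proteins during freezing, and others raise sugars such as raffinose. The comparison asks which of these transcripts, and which others, stood at a different level after 1 day of cold in a line named after the CBF genes.

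Values are normalised reads, meaning reads per gene divided by 1 size factor per library. Read totals at 24 h were 17604977 and 21057683 in cbfs-1 and 18727639 and 19729206 in wild type. At this depth 3 reads correspond to normalised values of 2.72 to 3.23. Across genes the libraries of a group correlated at r = 0.992 in cbfs-1 and r = 0.989 in wild type on the log2 scale, over genes, which are no replicates. Reads of the 2 libraries of a group differed beyond counting error, with a chi-square per degree of freedom of 6.44 in cbfs-1 and 16.9 in wild type, so each library was counted as 1 sample. Whether the 2 libraries of a group were grown apart is not in the labels, and the p-values therefore reflect the spread among these libraries alone, which may be technical. The difference is cbfs-1 minus wild type on the log2(value + 1) scale, where the added 1 shrinks changes of weakly expressed genes. Calls needed an adjusted p below 0.05 (Benjamini-Hochberg, over the 20666 genes tested), from limma with 6 group means over the 12 libraries, and adjusted p-values below are from this test.

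Transcripts of the 3 CBF genes were present in both genotypes at 24 h. CBF1 (AT4G25490) had 78.7 and 38.1 normalised reads in cbfs-1 and 69.8 and 22.4 in wild type, CBF2 (AT4G25470) had 941 and 448 in cbfs-1 and 569 and 239 in wild type, and CBF3 (AT4G25480) had 893 and 799 in cbfs-1 and 404 and 180.3 in wild type. Both cbfs-1 libraries lay above both wild type libraries for CBF3, while for CBF1 and CBF2 the genotypes overlapped. Within each replicate number CBF1 and CBF2 were also higher in cbfs-1, but no label says that the numbers pair the libraries. None of the CBF differences passed the main test (CBF1 0.45, adjusted p = 0.895, CBF2 0.82, adjusted p = 0.887, CBF3 1.64, adjusted p = 0.0885). With a replicate block CBF3 passed, and CBF2 passed in some settings, as given at the end. DESeq2 on the recovered reads called CBF3 higher (adjusted p = 0.000112) and edgeR did not (adjusted p = 0.0559). Without wild type replicate 1 the CBF3 difference passed in limma too (adjusted p = 0.0455), and the CBF1 difference turned to -0.06 without cbfs-1 replicate 1 and to -0.34 without wild type replicate 2. CBF3 was the 1 CBF gene that differed past the test before cold, with 175 and 138 in cbfs-1 against 15.3 and 7.59 in wild type (log2 difference 3.72, adjusted p = 0.00785). At 3 h it stood at 1158 and 1095 in cbfs-1 and 6133 and 7126 in wild type, which did not pass (adjusted p = 0.0906). CBF4, DDF1 and DDF2, the other genes of the family looked for, were not members. Gene counts do not show a small lesion within a transcript, so the CBF values at 24 h do not check the genotype labels, and the 3 genes are near copies side by side on the chromosome, among which the division of reads is uncertain.

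After 24 h of cold, 112 members were called lower in cbfs-1 (0.566% of 19789) and 54 higher (0.273%). Over all 20666 genes tested these shares were 0.542% lower and 0.266% higher. For each of the 166 genes (0.839%) both cbfs-1 libraries lay on one side of both wild type libraries, as they did for 8632 of all members (43.6%). The falls were the larger changes, with a median log2 difference of -1.34 among the 112 and -0.55 at the smallest. Of these, 77 fell at least 2-fold (0.389%) and 29 at least 4-fold. The rises had a median of 0.83 and reached from 0.44 to 2.80, with 17 of at least 2-fold (0.0859%) and 1 of at least 4-fold. At an unadjusted p below 0.05 there were 965 lower and 1088 higher genes. Of the members, 62 passed the value rule through wild type alone and 84 through cbfs-1 alone. Of the 112 lower genes, 5 passed through wild type alone (MRD1, AT1G67626, CLE5, QQS and AT4G21970), which had to be low in cbfs-1 to pass that way, and the other 107 reached 10 in a library of each genotype.

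**Figure D1:**
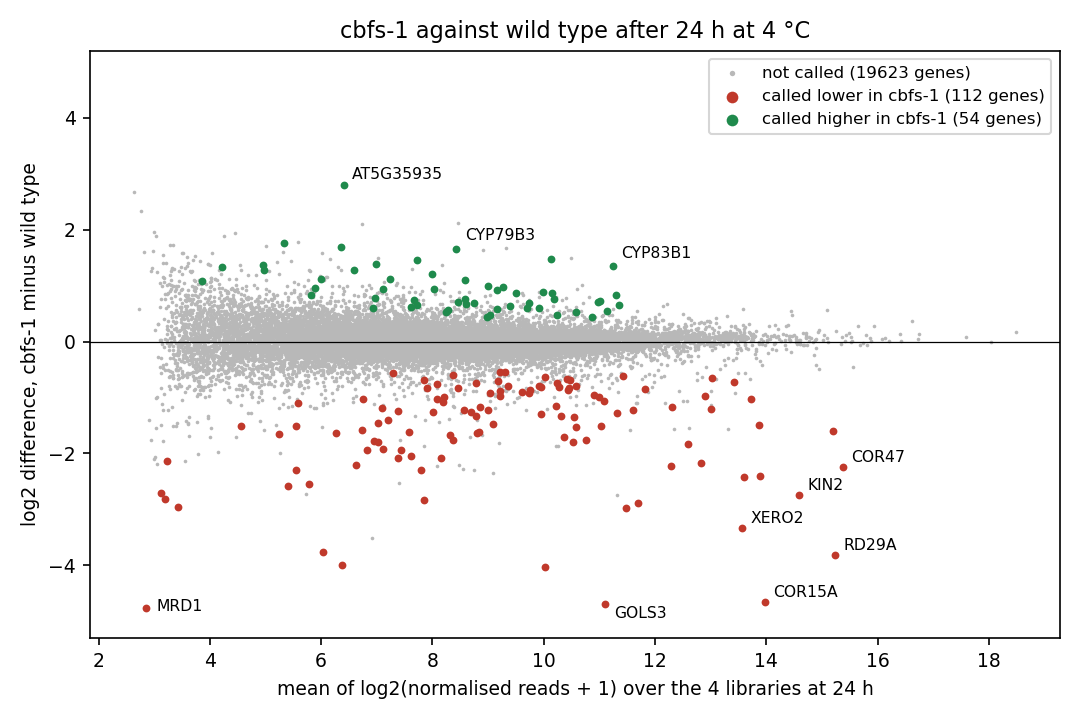
Each point is 1 of the 19789 genes, with its mean level over the 4 libraries at 24 h on the x axis (log2 of normalised reads + 1) and the log2 difference between cbfs-1 and wild type on the y axis. The 112 genes called lower reach below -4 and include genes of very high level such as RD29A and COR47, while the 54 called higher lie between 0.44 and 2.80.

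The counts rest on few libraries. Without cbfs-1 replicate 1 the test called 18 lower and 10 higher, without cbfs-1 replicate 2 it called 18 lower and 8 higher, without wild type replicate 1 it called 30 lower and 22 higher, and without wild type replicate 2 it called 154 lower and 43 higher. All 112 lower genes and all 54 higher genes kept the sign of their difference in these fits, but this was fixed beforehand. For each of them both libraries of one genotype lay apart from both of the other, so leaving out 1 library could not turn a sign. The wild type libraries themselves stood apart on the genes that fell: replicate 1 was above replicate 2 for 107 of the 112, by a median of 0.41 on the log2 scale, against 52.1% of all members, and in cbfs-1 replicate 1 was above replicate 2 for 62 of the 112, by a median of 0.03. What lies behind this gap was not tested.

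Among the 24 gene lists, that of cold-regulated and dehydrin genes held the most falls. The lists together held 14 of the 112 lower genes. Of 18 members of the cold-regulated and dehydrin list 11 were called lower and 0 higher, against 0.566% and 0.273% over all members. All 18 differences were below 0, and the median was -2.33 against 0.0048 over all members. EdgeR on the recovered reads also called 11 lower and DESeq2 13. These genes are textbook targets of the CBF proteins, and the list was made with results of these data known, so its direction is not independent evidence. Without cbfs-1 replicate 1 the count was 7, and without cbfs-1 replicate 2 it was 6.

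COR15A (AT2G42540) encodes a small protein of the chloroplast stroma that protects chloroplast membranes during freezing. It had 3273 and 3092 normalised reads in cbfs-1 and 91302 and 71501 in wild type, so that the higher cbfs-1 library was far below the lower wild type one (log2 difference -4.67, SE 0.38, adjusted p = 0.000946). Its tandem neighbour COR15B (AT2G42530), with the same kind of product, had 5253 and 5499.6 in cbfs-1 and 30702 and 27389 in wild type (-2.43, SE 0.37, adjusted p = 0.0182). The call for COR15B did not hold in any of the 4 fits that left out a library at 24 h, with adjusted p up to 0.147, while over all alternatives the difference stayed between -2.58 and -2.35. RD29A (AT5G52310), which encodes a large hydrophilic protein induced by cold, drought and salt, had 11588 and 9031 in cbfs-1 and 194697 and 107678 in wild type (-3.82, SE 0.31, adjusted p = 0.000946). XERO2 (AT3G50970), also known as LTI30, is a membrane-binding dehydrin, a hydrophilic protein of drying and frozen cells, and had 4499 and 3239 in cbfs-1 against 53009 and 28308 in wild type (-3.34, SE 0.27, adjusted p = 0.000946). For RD29A and XERO2 wild type replicate 1 lay well above replicate 2, and both stood far above the cbfs-1 libraries.

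The promoters of these genes show where the CBF core element lies. The 250 bases before the annotated gene start were read from RefSeq assembly TAIR10.1, 5′ to 3′ on the gene's strand, for the tandem pair and for the pair of other genes with the most matches on the list; CCGAC, or its reverse complement GTCGG, is in capitals. COR15A (chr2:17712331-17712580, minus strand) holds 2 matches, COR15B (chr2:17710434-17710683, minus strand) 0, RD29A (chr5:21240467-21240716, plus strand) 3 and XERO2 (chr3:18940393-18940642, plus strand) 3.
COR15A: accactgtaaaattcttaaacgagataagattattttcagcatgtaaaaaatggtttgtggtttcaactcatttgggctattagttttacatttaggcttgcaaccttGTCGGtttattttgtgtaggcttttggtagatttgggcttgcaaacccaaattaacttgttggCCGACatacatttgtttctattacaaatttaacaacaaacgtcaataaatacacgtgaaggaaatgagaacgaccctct
COR15B: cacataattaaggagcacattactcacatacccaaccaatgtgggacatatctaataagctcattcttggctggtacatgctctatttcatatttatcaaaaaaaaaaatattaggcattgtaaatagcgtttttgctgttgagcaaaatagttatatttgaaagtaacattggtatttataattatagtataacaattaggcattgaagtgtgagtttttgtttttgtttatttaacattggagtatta
RD29A: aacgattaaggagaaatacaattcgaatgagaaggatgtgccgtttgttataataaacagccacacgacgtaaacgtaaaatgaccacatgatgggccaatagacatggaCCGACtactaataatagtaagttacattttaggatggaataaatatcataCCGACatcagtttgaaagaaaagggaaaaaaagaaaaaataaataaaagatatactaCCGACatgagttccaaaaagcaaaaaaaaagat
XERO2: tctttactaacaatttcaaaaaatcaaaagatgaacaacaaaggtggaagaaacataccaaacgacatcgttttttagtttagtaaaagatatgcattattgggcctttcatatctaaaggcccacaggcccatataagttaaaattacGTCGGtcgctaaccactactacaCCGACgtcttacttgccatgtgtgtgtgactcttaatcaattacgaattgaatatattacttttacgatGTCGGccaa
A match is a run of letters and not a shown binding site. COR15A and COR15B stand next to each other on chromosome 2, both fell, and their windows hold 2 and 0 matches.

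KIN1 (AT5G15960) and KIN2 (AT5G15970), another tandem pair, encode very small hydrophilic proteins induced by cold and abscisic acid. KIN2 had the smallest adjusted p of the comparison, with 9369 and 9594 in cbfs-1 and 69314 and 58559 in wild type (-2.75, SE 0.11, adjusted p = 1.26e-05). KIN1 had 1055 and 988 in cbfs-1 and 8898 and 7230.4 in wild type (-2.97, SE 0.16, adjusted p = 6.53e-05). Their replicates lay close together in both genotypes, and both calls held whichever library was left out. The 2 genes are near copies, so the division of reads between them is uncertain. COR413-PM1 (AT2G15970), a protein with several membrane spans in the plasma membrane, had 7036 and 6185 in cbfs-1 and 43142 and 28498 in wild type (-2.41, SE 0.22, adjusted p = 0.00161).

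The other called members of the list, named after their values were seen, were the dehydrins COR47 and ERD10, the late embryogenesis abundant protein gene LEA14 and the membrane protein gene ERD4. COR47 had 23071 and 16538 in cbfs-1 and 123817 and 69766 in wild type (-2.25), and ERD10 had 26568 and 17235 in cbfs-1 and 89800.1 and 47474 in wild type (-1.61). LEA14 had 3959.7 and 2746 in cbfs-1 against 16411 and 8343 in wild type (-1.83), and ERD4 5358 and 5534 in cbfs-1 against 12648 and 9052 in wild type (-0.97, adjusted p = 0.0138). Their changes were thus smaller than those of COR15A, RD29A and XERO2.

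The 7 members that did not pass were RD29B, COR413IM1, ERD7, RAB18, ERD14, COR413IM2 and COR27. RD29B, the tandem neighbour of RD29A, had a difference of -3.51 (SE 0.86, adjusted p = 0.124) from 36.6 and 32.6 in cbfs-1 and 913 and 179 in wild type, where the 2 wild type libraries lay far apart. COR413IM1, of the chloroplast inner envelope, had 1077 and 897 in cbfs-1 and 7587 and 5751 in wild type (-2.75, SE 0.55, adjusted p = 0.0666). The genotypes did not overlap for RD29B and COR413IM1, which also held for 43.6% of all members. ERD7 differed by -0.91, RAB18 by -0.82, and the other two by -0.68 (ERD14) and -0.48 (COR413IM2). COR27, a cold-regulated gene of the circadian system, had 2479.9 and 1627 in cbfs-1 and 2899 and 1530.3 in wild type (-0.07, adjusted p = 0.993), and the genotypes overlapped.

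**Figure D2:**
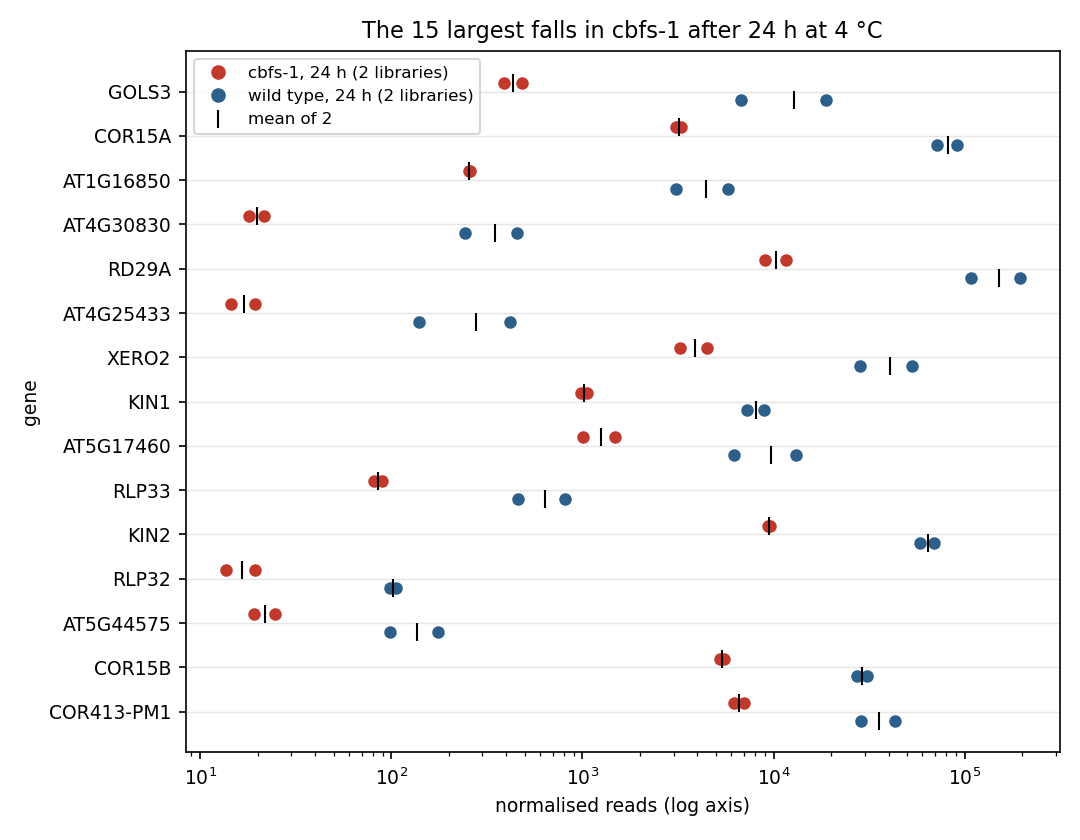
Each row is 1 of the 15 largest falls among called genes whose higher genotype averaged 100 or more. Points are the 2 cbfs-1 libraries (above) and the 2 wild type libraries (below) in normalised reads on a log axis, and ticks are their means. Genes were chosen with no overlap between genotypes, so in every row both cbfs-1 points lie left of both wild type points.

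In the sugar and osmolyte list few genes were called, and 16 of 26 differences were below 0. GOLS3 (AT1G09350), a cold-induced galactinol synthase that makes the galactosyl donor of raffinose synthesis, had 482 and 388 in cbfs-1 and 18837 and 6747 in wild type (-4.70, SE 0.42, adjusted p = 0.00162). SUS1 (AT5G20830), a sucrose synthase, had 3857 and 3074 in cbfs-1 and 20179 and 11898 in wild type (-2.17, SE 0.21, adjusted p = 0.00212). SWEET17 (AT4G15920), a fructose carrier of the vacuole membrane, was the 1 member called higher, with 387 and 371 in cbfs-1 and 269 and 242 in wild type (0.57, SE 0.10, adjusted p = 0.0324), and this call was lost in each of the 4 fits without 1 library. Of 26 members tested 2 were called lower, 1 higher and 23 neither, with a median of -0.12. Over all members 0.566% were called lower and 0.273% higher. In this list edgeR called 3 lower and 1 higher, and DESeq2 5 lower and 1 higher. At an unadjusted limma p below 0.05, 7 of the 26 were lower and 1 higher. GOLS1 (-1.13, adjusted p = 0.0561), the sucrose-phosphate synthase gene SPS2F (-1.10, adjusted p = 0.0911) and the proline synthesis gene P5CS2 (-1.14, adjusted p = 0.22) did not pass. GolS4, a galactinol synthase gene outside the list and named after its values were seen, was called lower at 282 and 371 in cbfs-1 and 1086 and 752 in wild type (-1.48, adjusted p = 0.0152). The beta-amylase gene BAM3, whose product starts the release of maltose from starch, had 47913 and 35363 in cbfs-1 and 71168 and 44403 in wild type (-0.45, adjusted p = 0.896), and the genotypes overlapped.

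Of 19 cold-responsive transcription factor genes 1 was called, against 0.839% over all members, with a list median of -0.09. RAP2.1 (AT1G46768), an ERF repressor that binds the same element as the CBF proteins, had 89.5 and 111 in cbfs-1 and 638 and 382 in wild type (-2.29, SE 0.25, adjusted p = 0.00411). Without cbfs-1 replicate 1 its adjusted p was 0.0570. Its relative DEAR1 had 147 and 136 in cbfs-1 and 314 and 159.9 in wild type (-0.66, adjusted p = 0.457), and the zinc-finger gene ZAT12 514 and 344 in cbfs-1 and 480.2 and 342 in wild type (0.05, adjusted p = 0.983). The ERF genes RAP2.9 and RAP2.6, outside the list and named after their values were seen, were called lower (-1.77, adjusted p = 0.0175, and -1.58, adjusted p = 0.0252). Their values were 71.1 and 61.6 in cbfs-1 and 292 and 179 in wild type for RAP2.9, and 59.3 and 61.6 in cbfs-1 and 212 and 158 in wild type for RAP2.6.

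Several of the largest falls belonged to genes known by locus alone. AT1G16850, annotated as uncharacterized, had 259 and 254 in cbfs-1 and 5765 and 3098 in wild type (-4.04, SE 0.31, adjusted p = 0.000946), and its call held whichever library was left out. AT4G30830, annotated as a myosin-like protein of unknown function, had 21.6 and 18.1 in cbfs-1 and 455 and 242 in wild type (-4.00, adjusted p = 0.00212). AT4G25433, annotated with a peptidoglycan-binding LysM domain, had 19.4 and 14.5 in cbfs-1 and 417 and 139 in wild type (-3.77, adjusted p = 0.00536). AT5G17460, annotated as a subunit C of a glutamyl-tRNA amidotransferase, had 1486 and 1007 in cbfs-1 and 13066 and 6219 in wild type (-2.88, adjusted p = 0.00809). In all 4 genes wild type replicate 1 was the higher, and both wild type libraries stood well above cbfs-1. The calls for AT4G25433 and AT5G17460 were lost without either of the cbfs-1 libraries. The receptor-like protein genes RLP33 and RLP32 are neighbours and close copies; RLP33 had 80.8 and 89.7 in cbfs-1 and 816 and 460.1 in wild type (-2.83, adjusted p = 0.01), and RLP32 19.4 and 13.6 in cbfs-1 and 106 and 98.4 in wild type (-2.58, adjusted p = 0.0099). AT5G44575, uncharacterized, completed the 15 with 24.8 and 19.0 in cbfs-1 and 176 and 98.4 in wild type (-2.54, adjusted p = 0.0244). The calls for RLP33, RLP32 and AT5G44575 held in 1 of the 4 fits without 1 library, the one without wild type replicate 2.

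Further down the order of falls stood genes of known function that no list held, named here after their values were seen. ADH1, alcohol dehydrogenase, had 9931 and 7978 in cbfs-1 and 30292 and 20932 in wild type (-1.50, adjusted p = 0.0212). PLDALPHA1, a phospholipase D, had 9637 and 9238 in cbfs-1 and 22216 and 16854 in wild type (-1.04, adjusted p = 0.0126). MGD1, which makes the main galactolipid of chloroplast membranes, had 1096 and 1224 in cbfs-1 and 2011 and 2006 in wild type (-0.79, adjusted p = 0.00551), with close replicates in both genotypes. None of the 11 genes of the membrane lipid list, the fatty acid desaturases among them, was called by limma, edgeR or DESeq2, and 0 had an unadjusted p below 0.05. Their differences ran from -1.02 (ADS1) to 0.15, with 6 of 11 below 0. As limma called 0.839% of all members, 0 calls among 11 genes say little about this list. GORK, the outward potassium channel of guard cells and roots, had 101 and 113 in cbfs-1 and 293 and 224 in wild type (-1.25, adjusted p = 0.00624). SHY2, an Aux/IAA repressor of auxin responses, had 333 and 347 in cbfs-1 and 596 and 544 in wild type (-0.74, adjusted p = 0.0164). FMO GS-OX4, an S-oxygenase of glucosinolate side chains, had 2522 and 2125 in cbfs-1 and 18079 and 6529.6 in wild type (-2.23, adjusted p = 0.0228).

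The rises included genes of indole glucosinolate synthesis. Glucosinolates are sulfur-rich defence compounds of the cabbage family; the indole ones are built from tryptophan and the aliphatic ones mainly from methionine. CYP79B3 (AT2G22330) and CYP79B2 (AT4G39950) turn tryptophan into indole-3-acetaldoxime, and CYP83B1 (AT4G31500) takes the next step towards indole glucosinolates. CYP79B3 had 611 and 614 in cbfs-1 and 183 and 205 in wild type (1.66, SE 0.09, adjusted p = 7.07e-05). CYP79B2 had 1859 and 1855 in cbfs-1 and 599.8 and 749.6 in wild type (1.47, SE 0.22, adjusted p = 0.0166), and CYP83B1 3841 and 3884 in cbfs-1 and 1371 and 1691 in wild type (1.34, SE 0.13, adjusted p = 0.00194). The calls for CYP79B3 and CYP83B1 held whichever library was left out, and that for CYP79B2 held only without wild type replicate 2. These 3 were the called members of a list of 9 glucosinolate genes, with 0 called lower and a median of 0.67. Over all members 0.273% were called higher. The tryptophan-pathway regulator MYB34 (0.67, adjusted p = 0.18) and the indole glucosinolate regulator MYB51 (0.83, adjusted p = 0.494) did not pass.

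A wider list of the glucosinolate pathway, drawn up after these values were seen and so no support for them, held 46 tested genes. Of these 10 were called higher and 1 lower, against 0.273% and 0.566% over all members, with a median of 0.36. EdgeR called 9 higher and 1 lower, and DESeq2 16 and 1. At an unadjusted limma p below 0.05, 26 were higher and 2 lower. The higher ones held 8 of 8 chain elongation genes and 5 of 7 of the aliphatic core. They also held 5 of 6 of the indole core and 5 of 5 for the steps shared by both branches. In the indole core 4 of 6 were called higher, the fourth being the sulfotransferase gene SOT16 (1574 and 1469 in cbfs-1 and 827 and 961 in wild type, 0.77). In methionine chain elongation 3 of 8 were called higher, namely IMS2 (0.72, adjusted p = 0.00338), IMD1 (0.64, adjusted p = 0.0156) and the aminotransferase gene BCAT4 (0.55, adjusted p = 0.0152). In the aliphatic core 1 of 7 was called, CYP79F2, which acts on chain-elongated methionine, at 827 and 905 in cbfs-1 and 415 and 461 in wild type (0.98, adjusted p = 0.00161). Its neighbour and close copy CYP79F1 had 2802 and 3197 in cbfs-1 and 2479.5 and 2840.3 in wild type (0.17, adjusted p = 0.808). In the steps shared by both branches 2 of 5 were called, the sulfate-activating kinase gene AKN2 (0.86, adjusted p = 0.0202) and GGP1 (0.44, adjusted p = 0.0484). Of 11 side-chain and ring modification genes 1 was called lower, the S-oxygenase gene FMO GS-OX4 given above, and 0 higher, and edgeR and DESeq2 made the same counts. The other members of its family, FMO GS-OX1 (0.35), FMO GS-OX2 (-0.17), FMO GS-OX3 (0.10) and FMO GS-OX5 (0.02), did not pass. None of the 6 MYB regulators or the 3 myrosinase genes was called by limma, edgeR or DESeq2, with 2 MYB genes higher and 1 lower at an unadjusted p below 0.05 and 0 myrosinase genes. Of 5 tryptophan synthesis genes, also listed after values were seen, the anthranilate synthase gene ASB1 was called higher (0.44, adjusted p = 0.0353).

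**Figure D3:**
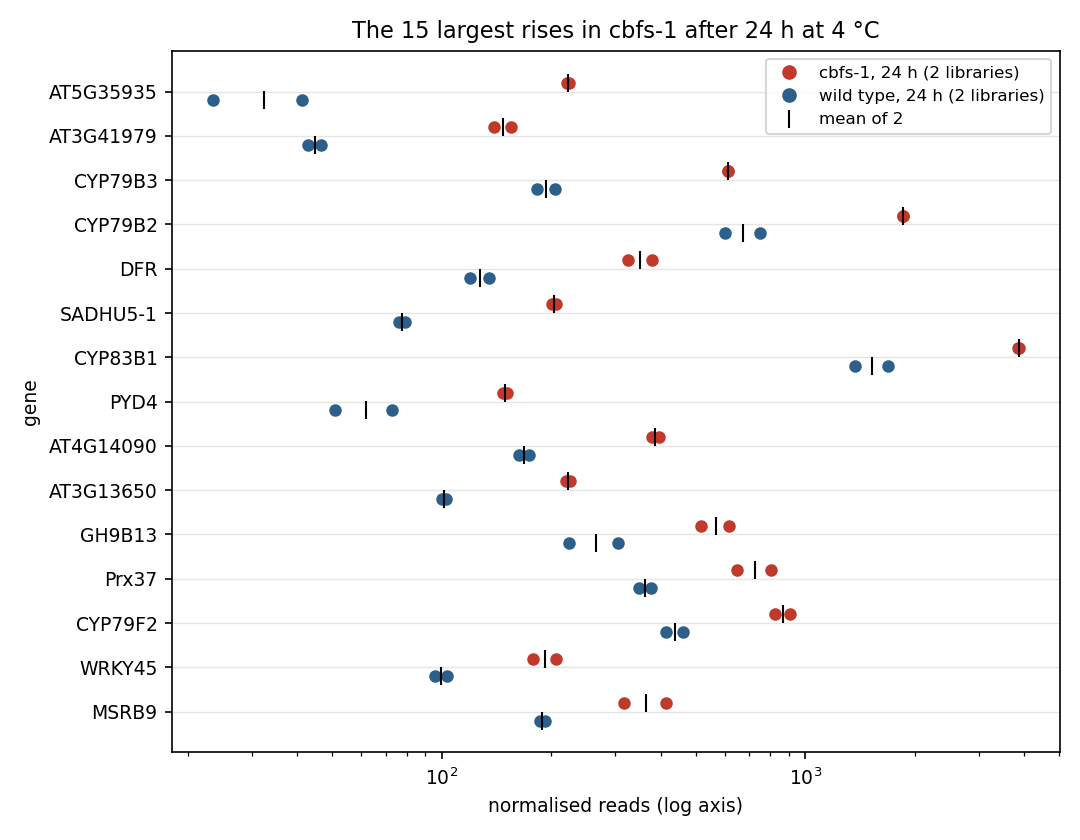
Each row is 1 of the 15 largest rises among called genes whose higher genotype averaged 100 or more. Points are the 2 cbfs-1 libraries (above) and the 2 wild type libraries (below) in normalised reads on a log axis, and ticks are their means. Genes were chosen with no overlap between genotypes, so in every row both cbfs-1 points lie right of both wild type points.

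Of 13 flavonoid genes 1 was called higher and 0 lower by limma, against 0.273% and 0.566% over all members. The list had a median of -0.13 and 7 differences below 0. EdgeR called 2 higher and DESeq2 4, and 4 were higher at an unadjusted p below 0.05. DFR (AT5G42800), dihydroflavonol reductase, had 324 and 379.6 in cbfs-1 and 119.5 and 135 in wild type (1.46, SE 0.23, adjusted p = 0.0212), a call that was lost in each of the 4 fits without 1 library. LDOX (442 and 485 in cbfs-1 and 164 and 193 in wild type, 1.37, adjusted p = 0.0815), UF3GT (213 and 219 in cbfs-1 and 85.7 and 68.2 in wild type, 1.49, adjusted p = 0.0967) and 5MAT (288 and 333 in cbfs-1 and 113 and 138 in wild type, adjusted p = 0.0603) act after DFR in anthocyanin synthesis and did not pass in limma. Their genotypes did not overlap, which also held for 43.6% of all members. The early flavonoid gene TT4, chalcone synthase, had 25616 and 29089 in cbfs-1 and 30284 and 34414 in wild type (-0.24, adjusted p = 0.941).

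The largest rise was that of AT5G35935, uncharacterized, with 224 and 221 in cbfs-1 and 41.3 and 23.4 in wild type (2.80, SE 0.24, adjusted p = 0.00148). AT3G41979, annotated as a 5.8S ribosomal RNA, had 139 and 155 in cbfs-1 and 46.5 and 42.9 in wild type (1.69, adjusted p = 0.01). SADHU5-1, a retroposon, had 202 and 206 in cbfs-1 and 79.3 and 76.0 in wild type (1.38, adjusted p = 0.00436). These 3 were also higher in both cbfs-1 libraries than in both wild type libraries before cold, as given below. PYD4, an enzyme of pyrimidine breakdown, had 151 and 148 in cbfs-1 and 73.0 and 50.7 in wild type (1.28, adjusted p = 0.0363). AT4G14090, annotated as a UDP-glycosyltransferase, had 379 and 395 in cbfs-1 and 163 and 173 in wild type (1.20, adjusted p = 0.0374), and AT3G13650, annotated as dirigent-like, 219.9 and 226 in cbfs-1 and 103 and 100.4 in wild type (1.13, adjusted p = 0.00223). The glycosyl hydrolase gene GH9B13 (517 and 619 in cbfs-1 and 224 and 306 in wild type, 1.11) and the peroxidase gene Prx37 (649 and 806 in cbfs-1 and 376 and 348 in wild type, 1.00) followed. WRKY45, a transcription factor (206 and 178 in cbfs-1 and 104 and 95.5 in wild type, 0.94), and MSRB9, which repairs oxidised methionine (413 and 317 in cbfs-1 and 186 and 192 in wild type, 0.93), completed the 15. The calls for PYD4, AT4G14090 and WRKY45 were lost in each of the 4 fits without 1 library. Those for AT3G41979, GH9B13 and MSRB9 held in 1 of the 4, those for SADHU5-1 and Prx37 in 2, and those for AT5G35935 and AT3G13650 in all 4.

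The other lists held no called gene. Together the 24 lists held 273 tested genes, of which 14 were called lower and 5 higher, and 19 lists had no call. In these 19, the CBF family included, 188 genes were tested. Limma called 0 of them, edgeR 0 and DESeq2 1 lower and 2 higher, with 10 lower and 15 higher at an unadjusted limma p below 0.05. Over all 19789 members limma called 0.839%, with 965 lower and 1088 higher at an unadjusted p below 0.05. Beside so small a share, 0 calls among 188 genes say little about these lists. The 16 circadian clock genes had a median of -0.13, and CCA1, a morning-phased clock gene, had 6108 and 5038 in cbfs-1 and 6846 and 5649 in wild type (-0.16, adjusted p = 0.979). In the abscisic acid list 17 of 18 differences were below 0, with a median of -0.27, and the lowest was that of RD26, a stress-induced NAC factor (205 and 182 in cbfs-1 and 905 and 284 in wild type, -1.39, adjusted p = 0.211). The 16 regulators of CBF expression had a median of -0.08, and ICE1, an activator of CBF transcription, had 1521 and 1587 in cbfs-1 and 1628 and 1552 in wild type (-0.03, adjusted p = 0.963). Gibberellin genes had a median of -0.07 over 15, with GA2OX2, a gibberellin-inactivating enzyme, at 257 and 156 in cbfs-1 and 108 and 84.8 in wild type (1.06, adjusted p = 0.119). Medians were 0.23 over 15 jasmonate genes, 0.04 over 13 salicylate and defence genes, 0.30 over 15 elongation growth genes, 0.36 over 7 RNA chaperone genes, 0.07 over 7 ribosome biogenesis genes, -0.01 over 11 membrane lipid genes, 0.07 over 6 heat shock genes, -0.10 over 5 flowering-time genes, 0.02 over 2 ELIP genes (light-stress proteins of the chloroplast) and 0.07 over 5 reference genes. Over the 18 light-harvesting and Rubisco genes, whose summed level was 1534520 to 1656790 in cbfs-1 and 1423101 to 1620785 in wild type, the median was 0.05.

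Markers of organs and of dividing cells were read as well. All 9 root markers were above 0, with summed levels of 2724 and 3448 in cbfs-1 and 2671 to 2745 in wild type, and a median difference of 0.27. The 7 cell division genes summed to 2803 to 2819 in cbfs-1 and 2587 to 2614 in wild type, with a median of 0.04. The 4 flower and seed markers were not members and summed to 3.62 to 12.9 in cbfs-1 and 2.12 to 15.6 in wild type, with the seed storage gene CRU3 at 0 in both cbfs-1 libraries. The part of root markers in the rises was not tested.

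The same genes were read at 0 h and 3 h, in contrasts that use other libraries but share the estimate of spread. Before cold 5 members were called lower (0.0253%) and 3 higher (0.0152%), and at 3 h 6 were called lower (0.0303%) and 0 higher by limma, with 337 higher at an unadjusted p below 0.05, 1 by edgeR and 11 by DESeq2. Of the 8 genes called at 0 h 7 were called at 24 h (87.5% of the 0 h calls and 4.22% of the 24 h calls), and so were all 6 called at 3 h (100% and 3.61%). Over the 112 genes lower at 24 h the median difference was -0.07 at 0 h, where 74 were below 0, and -0.27 at 3 h, where 103 were below 0. Over the 54 higher genes it was 0.11 at 0 h, with 11 below 0, and 0.09 at 3 h, with 14 below 0.

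The 4 genes called at all 3 times were KIN1, KIN2, MRD1 and ARP9, all lower in cbfs-1. KIN2 had 717 and 651 in cbfs-1 and 1502 and 1688 in wild type before cold, 1404 and 1379 in cbfs-1 and 5886 and 5046 in wild type at 3 h, and the 24 h values above. MRD1, named for its fall in the methionine-overaccumulating mutant mto1, had 0 and 0 in cbfs-1 and 24.0 and 17.4 in wild type at 0 h, 0 and 0 in cbfs-1 and 24.1 and 18.8 in wild type at 3 h, and 0 and 0.906 in cbfs-1 and 28.6 and 46.8 in wild type at 24 h. Its cbfs-1 value at 24 h rests on 1 read over both libraries, so no fold is given. ARP9, an actin-related protein gene, had 169 and 186 in cbfs-1 and 599 and 615 in wild type at 24 h (-1.77, adjusted p = 0.000946), with 258 and 205 in cbfs-1 and 647 and 659.7 in wild type at 0 h. MRD1 and ARP9 thus stood apart between the genotypes before cold as well. The retroposon SADHU5-1 had 156 and 168 in cbfs-1 and 68.8 and 57.5 in wild type at 0 h and AT3G41979 178 and 222 in cbfs-1 and 44.8 and 57.5 in wild type, both called higher (adjusted p = 0.0189 and 0.0189). AT5G35935 had 244 and 253 in cbfs-1 and 86.3 and 66.2 in wild type at 0 h, which did not pass (adjusted p = 0.0949).

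For RD29A and COR15A both cbfs-1 libraries at 24 h lay above both at 0 h, a contrast that was not tested. RD29A had 682 and 514 in cbfs-1 and 1146 and 1184 in wild type at 0 h (log2 difference -0.98, adjusted p = 1) and 2201 and 1619.8 in cbfs-1 and 16606 and 10041 in wild type at 3 h (-2.77, adjusted p = 0.0254), beside a difference of -3.82 at 24 h. COR15A had 222 and 83.3 in cbfs-1 and 443 and 270.2 in wild type at 0 h (-1.34, adjusted p = 1) and 592 and 538 in cbfs-1 and 3322 and 3448 in wild type at 3 h (-2.58, adjusted p = 0.0954). SUS1 stood before cold at 1352 and 1391 in cbfs-1 and 1390.2 and 1335 in wild type, and after 3 h at 1879 and 1651 in cbfs-1 and 2288 and 1973 in wild type. Its genotypes overlapped at 0 h and lay close together at 3 h. CYP79B3 stood at 1297 and 1373 in cbfs-1 and 1435 and 1248 in wild type at 0 h and 1268 and 1274 in cbfs-1 and 1386 and 1399.7 in wild type at 3 h, and CYP83B1 at 3665 and 4375 in cbfs-1 and 4051 and 4239 in wild type at 0 h. The 24 h values of CYP79B3 were thus below its 0 h values in both genotypes, and further below them in wild type.

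**Figure D4:**
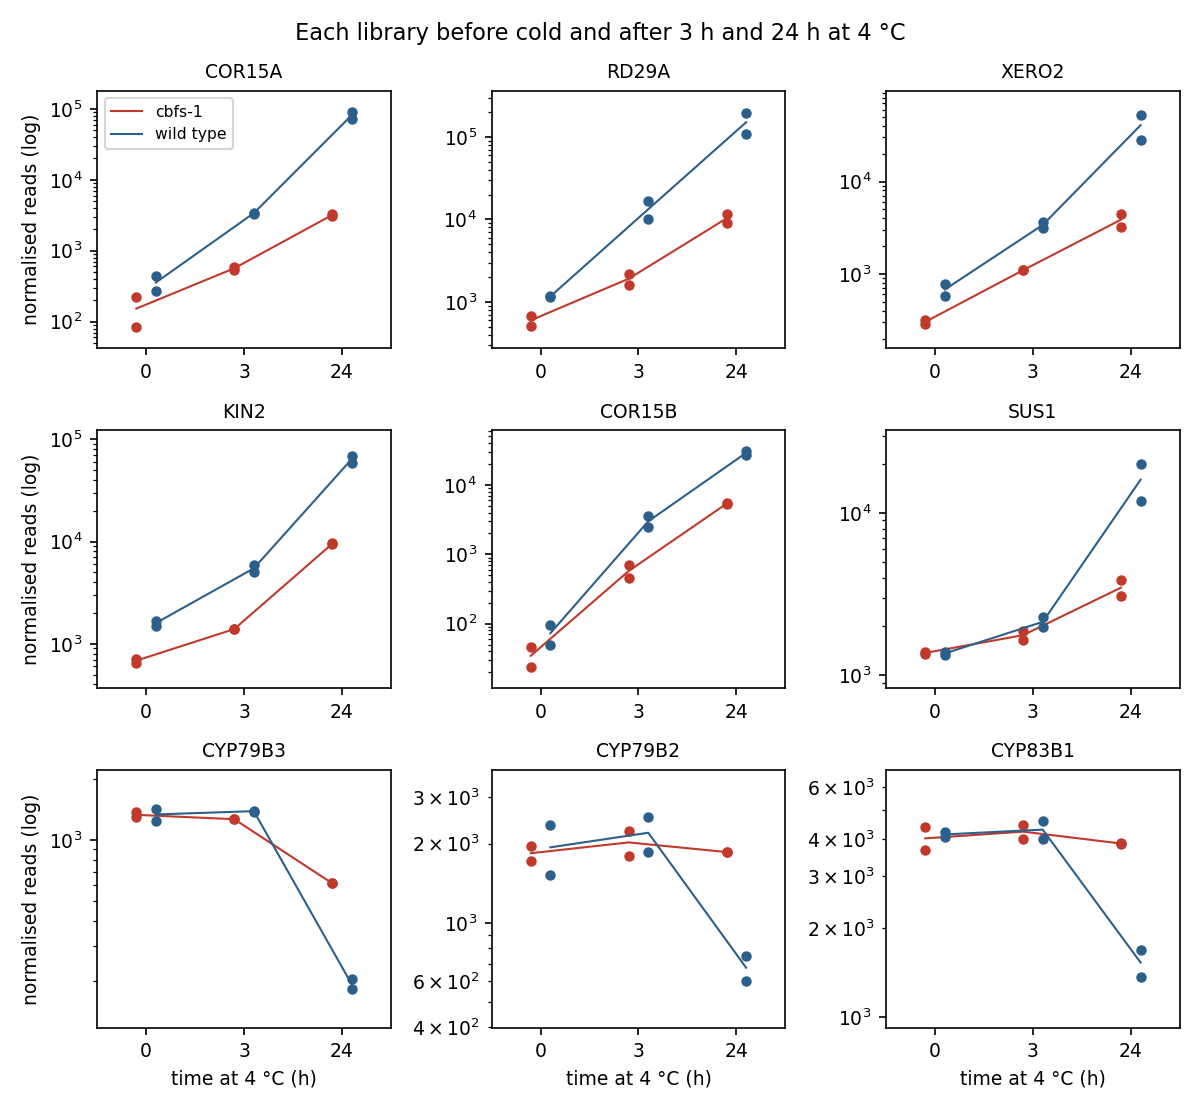
Normalised reads of 9 genes (log axis) in each library at 0 h, 3 h and 24 h at 4 °C, with cbfs-1 left of wild type at each time and lines through the means of 2 libraries. The 6 cold-regulated or sugar genes end lower in cbfs-1 at 24 h, and the 3 glucosinolate genes end higher, while at 0 h and 3 h none of those 3 differed past the test.

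Tests of the difference between times passed for few genes. Against 0 h, the genotype difference at 24 h was lower for 1 member, KIN2 (0.00505%), and higher for 1, CYP79B3 (0.00505%). Against 3 h it was higher for 1, again CYP79B3 (0.00505%), and lower for 0 (0%), with 412 lower at an unadjusted p below 0.05, 0 by edgeR and 30 by DESeq2. For RD29A the difference at 24 h minus that at 0 h was -2.85 (adjusted p = 0.113), and for COR15A -3.33 (adjusted p = 0.113). Without cbfs-1 replicate 1, and likewise without cbfs-1 replicate 2, 0 genes were called in either direction against 0 h, while without wild type replicate 1 there were 4 lower and 5 higher and without wild type replicate 2 49 lower and 4 higher.

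The CBF core element was looked for in the promoters of all members. Each window ran from 250 bases before to 50 bases after the annotated start (300 bases), and CCGAC was searched on both strands. It was present in 59 of the 112 promoters of lower genes (52.7%, Wilson 95% interval 43.5% to 61.7%), in 3 of the 54 of higher genes (5.56%, 1.91% to 15.1%) and in 3200 of 19697 over all members with a window (16.2%). At least 2 matches occurred in 22 of 112 (19.6%), 0 of 54 and 2.39% of all. Of the 15 largest falls 10 had a match, with 2 in GOLS3, AT1G16850, AT4G30830 and AT5G17460, and 1 in RLP33, RLP32 and COR413-PM1, beside those printed above. AT4G25433, KIN1, KIN2, AT5G44575 and COR15B had 0 in this window, as did COR47 and ERD10. Of the 15 largest rises 1 had a match. ACGTG, the core of the abscisic acid response element, was in 36.6% of lower, 40.7% of higher and 27.9% of all promoters, and AATATCT, the core of the evening element of clock-regulated genes, in 17.0%, 14.8% and 11.8%, in the same order. The core of the abscisic acid response element was also in 10 of the 15 largest falls, the same number as the CBF core element, and in 6 of the 15 largest rises. Among the 29 genes lower by at least 4-fold it was in 44.8% of promoters, and the CBF core element was in 51.7%. Over all members the CBF core element was in 16.2% of promoters and the core of the abscisic acid response element in 27.9%. Equal counts of the 2 cores thus stand beside unequal shares over all members. These shares are descriptions with no test, and no match says only that the letters are not in the window.

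Some called genes were neighbours. Of 9 pairs of called genes next to each other in the annotation, 7 differed in the same direction, 6 of them both lower (COR47 and ERD10, COR15B and COR15A, KIN1 and KIN2, RLP32 and RLP33, GLY3 and NTMC2T6.1, PP2-A3 and emb1187) and 1 both higher (AKN2 and CYP79B2). In 2 pairs the directions were opposite, and KIN2 is in a pair of each kind. As 112 calls were lower and 54 higher, many pairs of called genes share a direction wherever they lie, and no excess among neighbours was tested. DI21, a drought-induced gene, had 1713 and 1574 in cbfs-1 and 4787 and 3341 in wild type (-1.28) next to SWEET17 with 0.57. AT5G15980, annotated as a pentatricopeptide repeat protein, had 772 and 794 in cbfs-1 and 396 and 435 in wild type (0.91, adjusted p = 0.016) next to KIN2 on the same strand.

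At the edge of the value rule, AT1G17615 (11.9 and 9.06 in cbfs-1, 10.6 and 3.90 in wild type) and AT1G32385 (3.23 and 9.06 in cbfs-1, 10.6 and 10.7 in wild type) were just inside it. AT1G15415 (9.70 and 9.97 in cbfs-1, 10.6 and 7.80 in wild type) and WAKL2 (7.54 and 9.97 in cbfs-1, 10.6 and 7.80 in wild type) were just outside.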

How the data were processed

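RNA sequencing values of 12 seedling libraries were used, 2 for each genotype at 0, 3 and 24 h. Per the submitters' processing notes, the tools named are DESeq2, HTSeq 0.6.0, Cufflinks 2.2.1 and TopHat2 2.1.0, with the TAIR10 build; the sources used here do not give their roles, settings or strand use, so genes that overlap on opposite strands may share reads. The deposited signal values are gene counts divided by 1 size factor per library, as made by the authors, and 100% of the values gave whole reads within 0.001 after multiplication by that factor. Members and gene lists were chosen with earlier results of these data known.

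Values of at least 10 in 2 of 12 libraries selected the 20666 genes tested; counts are over the 19789 members. The log2 of the deposited value + 1 was fitted with limma 3.58.1 in R 4.3.3 (6 group means, 6 residual degrees of freedom, mean-variance trend), and tested on simulated data. Alternatives were edgeR 4.0.16 and DESeq2 1.42.0 on the recovered reads, other pseudocounts, filters and scalings, the 4 libraries at 24 h alone, a replicate block, and leaving out each library. A sole remaining library was then assumed to vary like the other groups.

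Named genes were CBF1 to CBF3, the 15 largest falls and rises among called genes whose higher genotype averaged 100 or more, with no overlap between genotypes, and up to 6 called members per list; others are stated as named after their values were seen. Gene names were matched by locus to RefSeq TAIR10.1, which named 24385 of 24616 genes; 287 of 290 list entries were found. Promoter windows came from the same assembly. Intervals and the floor of 3 reads cover counting error only. Figures and summaries used Python 3.11.15, pandas 2.3.3, scipy 1.17.1 and matplotlib 3.10.9.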

Additional observations from a re-analysis of the deposited data

Results flagged for a closer look

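In the main limma fit, a test of the change in the genotype difference between times passed for CYP79B3 and KIN2. CYP79B3 differed by 1.66 (log2, cbfs-1 minus wild type) at 24 h and by -0.0036 at 0 h, a change of 1.66 (SE 0.129, limma adjusted p = 0.00500). Against its difference of -0.13 at 3 h the change was 1.79 (SE 0.129, adjusted p = 0.00254). KIN2 differed by -2.75 at 24 h and -1.22 at 0 h, a change of -1.53 (SE 0.158, adjusted p = 0.0320). Against 3 h the change for KIN2 was -0.78 and did not pass (limma adjusted p = 0.356), nor did KIN2 pass against 0 h in limma without a trend. As given above, the calls against 0 h were lost when either cbfs-1 library at 24 h was left out. For both genes the cbfs-1 libraries at 24 h lay on one side of both wild type libraries, as for every gene called at 24 h.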

How the results depend on the processing

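Other pseudocounts, filters and scalings gave 103 to 117 lower and 45 to 54 higher genes at 24 h. Leaving out 1 library gave 18 to 154 lower and 8 to 43 higher genes, 9 to 18 lower and 2 to 3 higher list members, 0 to 49 lower and 0 to 5 higher changes against 0 h, 1 to 2 higher genes at 0 h, 3 to 15 lower and 0 to 1 higher genes at 3 h, and CCGAC in 49.4% to 63.3% of the promoters of lower genes. DESeq2 gave 224 lower and 128 higher genes, 11 higher list members, 65 lower and 19 higher changes against 0 h, 8 lower and 8 higher genes at 0 h, and 39 lower and 11 higher at 3 h, and edgeR 1 higher at 3 h. Without a trend there were 74 lower genes, 3 higher list members, 0 lower changes against 0 h and 3 lower genes at 3 h. The 4 libraries at 24 h alone gave 109 lower genes, 72 of them among the 112 of the main test. They gave 32 higher genes, 21 of them among the 54, so part of the calls depended on the spread of the other 8 libraries. A cut of at least 2-fold left 17 higher, and a filter of 50 left 3 lower at 0 h. The CBF1 difference spanned -0.34 to 1.25 when 1 library was left out, with -0.06 without cbfs-1 replicate 1. The cause of these shifts was not tested.

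Same-numbered cbfs-1 and wild type libraries deviated together at r = 0.486 at 0 h, 0.565 at 3 h and 0.242 at 24 h. Across times, same-numbered libraries deviated together at 0.334 to 0.417 between 0 h and 3 h, and at 0.0428 to 0.108 between 24 h and the other times. With 2 numbers that no label ties to a batch, they were not taken to pair the libraries, though the counts below depend on this. With the block in limma CBF3 passed (adjusted p = 0.0194 over 12 libraries, 6.71e-05 by time, 3.06e-08 in 4), and CBF2 by time (0.00135) and in 4 (8.35e-07). In that order these fits left 5, 3 and 1 residual degrees of freedom. The spread shared over genes added 4.23, 9.75 and 19.3, so the smaller p-values rest mostly on spread borrowed from other genes. With the replicate block over 12 libraries 267 genes were lower and 235 higher at 24 h, with 13 higher list members, 59 lower and 16 higher changes against 0 h, 8 lower and 5 higher genes at 0 h, and 21 lower and 7 higher at 3 h. With the replicate block by time these were 1158 and 1191, list members 62 lower and 49 higher, changes 430 and 277, 49 and 104 at 0 h, 167 and 99 at 3 h, and CCGAC 26.8%. With the replicate block in the 4 libraries at 24 h they were 1071 and 1004, list members 61 and 44, and CCGAC 28.2%.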
